A study of Populus trichocarpa with 9 samples.

Results

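In all, 300 gene models of Populus trichocarpa form the group described here, namely those whose read counts were higher in stem differentiating xylem (SDX) at both 3 and 7 days of bending than in unbent stems. Counts were scaled to the library total as CPM, counts per 1000000 counts of the library, and the log2 ratio of each bent group mean to the control mean was taken after adding 1 CPM to both. L3 and L7 denote these ratios at 3 and 7 days, each less its median over all genes with a group mean of at least 2 CPM. A gene was kept when it had such a group mean, when L3 and L7 were both at least 1, and when its CPM in each of the 6 bent libraries was above its CPM in each of the 3 controls. Of 41335 gene models, 23743 reached 2 CPM in a group mean. Both ratios reached 1 in 405 of these, 99 of which failed because bent and control libraries overlapped, and 306 met the whole rule. With control replicate 2 left out 540 genes met it, and with 3-day replicate 2 left out 191 did. The 300 with the largest sum of L3 and L7 were retained. The members were thus chosen by their measured CPM in bent and control libraries.

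The libraries came from greenhouse trees 6 months old. Stems were bent to 90 degrees and held for 3 days (3 libraries) or 7 days (3 libraries), and the control trees were left unbent and labelled day 0 (3 libraries). SDX, the layer of developing wood cells under the bark, was scraped from the upper side of the bent stems, where tension wood (TW) forms. By the study's methods the trees were clonal plants of a single genotype of the species. No transgene or other treatment was named for these samples. No unbent stem was sampled at 3 or 7 days, and the effect of bending and that of the day of harvest cannot be told apart. These are bulk libraries, in which a change in the number of cells of a type and a change in RNA per cell cannot be told apart.

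Bent angiosperm stems make TW on the upper side, and the contraction of its fibres pulls the stem back towards the vertical. TW fibres of poplars commonly lay down a gelatinous inner wall layer that is rich in crystalline cellulose and poor in lignin. Fasciclin-like arabinogalactan proteins and xyloglucan-modifying enzymes are known for abundant transcripts in such tissue. The tables used here give each gene only by its ID, and no member is among the 31 wood genes that the study lists by ID and name, so the members are described by ID, position and counts without a function.

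Library totals ranged from 20888144 to 29539805 counts, so that 1 count was worth 0.0339 to 0.0479 CPM. Markers of tissues other than xylem were not examined. The 5 secondary wall cellulose synthase genes, which build the cellulose of wood cell walls, had 227.5 to 5064 CPM in every library. The 22 monolignol pathway genes, which make the precursors of lignin, had 30.6 to 3620 CPM, so both sets of wood genes were present throughout. Changes of these genes, for comparison with the members, went both ways. Of the monolignol genes, 1 of 22 had both L3 and L7 above 0 and 9 had both below 0, PtrAldOMT2 with L7 of only -0.006. The others had L3 below 0 and L7 above 0. Of the cellulose synthases 1 of 5, PtrCesA18 (L3 0.42, L7 1.43), had both above 0. In 2 both were below 0, PtrCesA4 (-1.34 and -0.55) and PtrCesA17 (-0.63 and -0.06). PtrCesA7 (-0.08 and 1.01) and PtrCesA8 (-0.09 and 0.84) were slightly below 0 at 3 days and above 0 at 7 days. The 2 hemicellulose genes of the study differed in sign, PtrIRX10-1 having L3 of 0.06 and L7 of 1.11 and PtrCslA2 having -1.93 and -2.54.

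Because bent against control values chose the members, the next values are a description and carry no test. Over the 300 members the median L3 was 1.30 (interquartile range 1.15 to 1.57, range 1.00 to 5.03) and the median L7 was 2.05 (1.83 to 2.44, range 1.12 to 5.87). As plain ratios of group means, the median was 2.73-fold at 3 days and 3.94-fold at 7 days. The median member had a mean of 16.3 CPM in controls, 47.9 CPM at 3 days and 68.7 CPM at 7 days. Typical members were therefore not silent in unbent SDX, although 50 had a control mean under 1 CPM and 70 one under 2 CPM, and those 70 passed the level limit only through a bent group. None had 0 counts in all 3 controls, 13 had 0 in at least 1 control, and 2 had fewer than 10 counts in the 3 controls together. Over all 27795 genes kept for testing, 3.22% had every bent library above every control, a property that the rule gave to each member.

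L7 exceeded L3 in 281 members, by at least 1 in 81 of them. L3 exceeded L7 in 19 members, and by at least 1 in only Potri.016G057600. At 3 days the median member had already shown 53.1% of its 7-day gain in CPM over controls (interquartile range 46.0 to 69.9%).

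**Figure D1:**
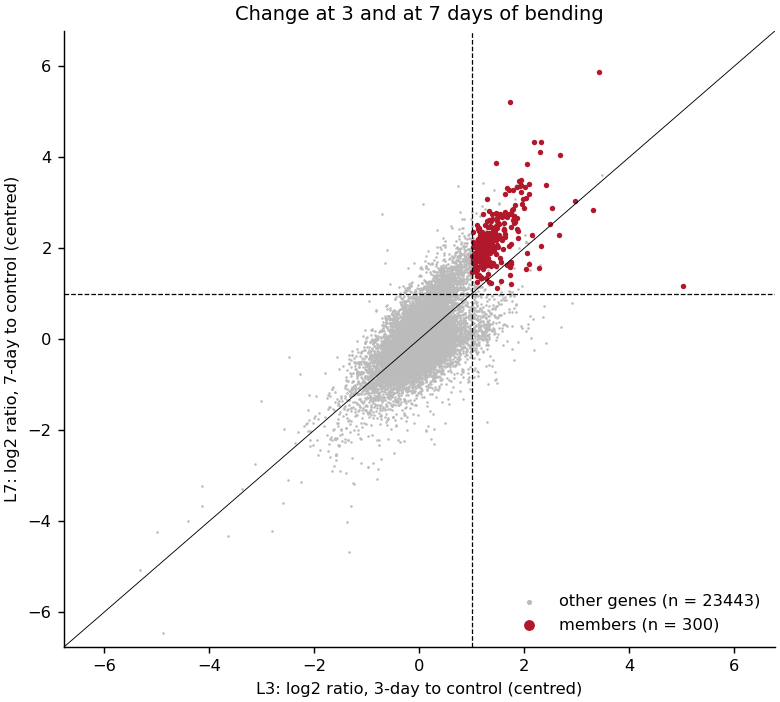
L3 (x axis) against L7 (y axis), both on a log2 scale, for the 300 members and all other genes with a group mean of at least 2 CPM. Dashed lines mark the limit of 1 on each axis, and 281 members lie above the diagonal of equal change.

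At the edge of the limit on size, the last members inside were Potri.001G206800 (L3 1.01, L7 1.48) and Potri.009G013800 (L3 1.09, L7 1.26). The first genes outside were Potri.001G018300 (L3 1.20, L7 1.13) and Potri.009G012500 (L3 1.11, L7 1.16). Both pairs lay close together, their sums of L3 and L7 running from 2.49 through 2.35 and 2.33 to 2.27.

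The members together took 2.47, 4.84 and 3.23% of all counts in control replicates 1, 2 and 3. They took 8.28, 10.3 and 6.69% in the 3-day libraries and 13.4, 12.9 and 12.8% in the 7-day libraries. The rule itself placed the bent libraries above the controls. The 3-day and 7-day libraries did not overlap either. Group means were 3.51% ± 1.21, 8.42% ± 1.81 and 13% ± 0.293 (SD, n = 3 each), and the 7-day libraries stood closest to each other. The 8 members with the most counts held 0.909 to 1.62% of a control library, 2.20 to 3.48% of a 3-day library and 4.45 to 4.61% of a 7-day library. A pair of these 8, on chromosome 18, had near-identical counts, and with that pair counted once the remaining 7 held 0.809 to 1.43, 1.97 to 3.12 and 3.99 to 4.13%. Members with near-identical counts, described below by position, were also counted once per set, which left 269 members and 1.88 to 3.64%, 5.22 to 8.11% and 10.2 to 10.6% in the same order of groups.

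**Figure D2:**
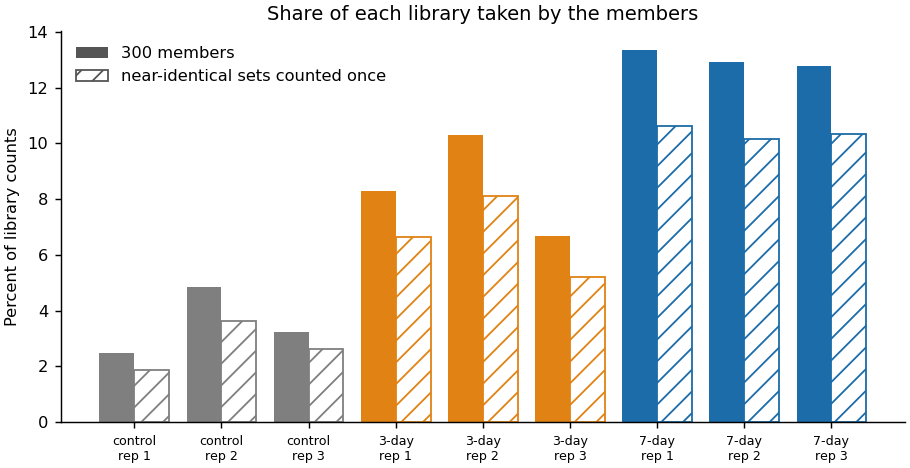
Share of all counts of a library (percent, y axis) taken by the members in each of the 9 libraries. Filled bars count all 300 members and hatched bars count each set of near-identical members once. With either count the 3-day and 7-day libraries do not overlap, and the rule placed both above the controls.

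Members varied between libraries of the same group more than other genes did in the control and 3-day groups, and less in the 7-day group. The median coefficient of variation was 45.5% over members against 18.3% over all genes with a group mean of at least 2 CPM in the controls, 26.7% against 18.2% at 3 days and 13.5% against 16.8% at 7 days. Control replicate 2 was the highest control in 240 members (80.0%, against 34.0% of all such genes), and control replicate 1 was the lowest in 232 (77.3% against 42.0%). The median log2 ratio of control replicate 1 to control replicate 2 was -0.98 over members and -0.06 over all genes.

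At 3 days, replicate 2 was highest in 222 members (74.0%, against 23.0% of all genes) and replicate 3 was lowest in 215 (71.7% against 27.2%). At 7 days, replicates 1, 2 and 3 were highest in 105, 98 and 97 members and lowest in 77, 143 and 80. Against all genes, replicate 2 was less often the highest (32.7% against 54.6%) and more often the lowest (47.7% against 25%) among the members. On the first principal component of all genes, which held 33.6% of the variance, the controls lay at -99.6, -25.8 and -43.2, the 3-day libraries at -26.2, 19.4 and -13.5, and the 7-day libraries at 61.7, 44.0 and 83.3. Control replicate 2 and 3-day replicate 1 thus lay side by side on that axis, and the part of this in the members' order was not tested.

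The gap between bent and control libraries was narrow for most members. The lowest bent CPM was a median of 1.36 times the highest control CPM (interquartile range 1.19 to 1.66, range 1.00 to 5.90), under 1.5 times in 188 members and at least 2 times in 30. The lowest bent library was 3-day replicate 3 in 199 members and 3-day replicate 1 in 55.

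**Figure D3:**
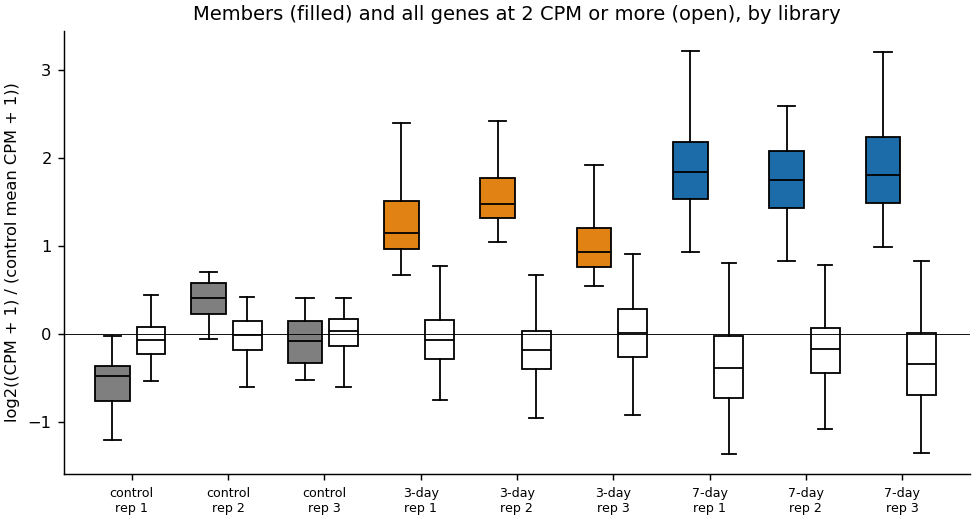
Log2 ratio of the CPM in each library to the control mean, with 1 CPM added to both (y axis), for the members (filled) and all genes with a group mean of at least 2 CPM (open). Boxes span the middle quartiles with the median and whiskers the 5th to 95th percentile; control replicate 2 stands highest among the controls and replicates 2 and 3 highest and lowest at 3 days for the members.

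To read the change in libraries that had not chosen the genes, the rule was applied to the libraries of 2 replicate numbers and the chosen genes were read in the libraries of the remaining number. Each held-out bent library was set against the control of the same number, although the labels do not pair them. The values thus depend on which control was read. Without replicate 1 the rule chose 293 genes, of which 222 were members. Of these 293, 283 (96.6%) were above the held-out control at 3 days and 265 (90.4%) at 7 days, against 50.7 and 30.7% of all genes with a group mean of at least 2 CPM. A ratio of at least 2-fold was seen in 79.5 and 82.3% of them, against 4.13 and 5.53% of all genes.

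Without replicate 2, 502 genes met the rule and the limit left 300, 214 of them members. Of these 300, 84.7% at 3 days and 85.0% at 7 days were above the held-out control, against 34.4 and 37.5% of all genes. At least 2-fold was reached by 41.0 and 59.3% of them, against 3.34 and 4.09% of all genes. Without replicate 3, 484 genes met the rule and the limit left 300, 211 of them members. Of these 300, 87.0 and 97.3% were above the held-out control, against 47.9 and 28.2%, while 36.3 and 90.3% reached 2-fold, against 6.58 and 4.79%. The held-out ratio was smallest where control replicate 2 (both times) or 3-day replicate 3 was read, with medians of 0.87 and 1.13 for number 2 and 0.84 and 1.89 for number 3, against 1.53 and 2.19 for number 1, on the log2 scale at 3 and 7 days.

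The comparison of 7-day with 3-day SDX was not a criterion of the rule, although the rule set a lower bound on both groups, and it shows how the members moved between the sampled days. With edgeR's quasi-likelihood test and Benjamini-Hochberg adjustment over all 27795 genes, no gene passed an adjusted p of 0.05, in the members or elsewhere. Adjusted p-values began at 0.147. Before adjustment, 156 of the 300 members (52.0%) had p under 0.05 with a higher level at 7 days and 1 (0.333%) with a lower level, against 11.2% and 9.01% of all genes tested. With near-identical members counted once, 130 of 269 were higher. The same bent libraries chose the members, so all genes tested are not a matched baseline for the shares here and below. How far the rule itself tilts these shares was not tested. DESeq2 called 54 members higher after adjustment (18%, against 4.12% of all genes) and 1 lower (against 2.35%). The calls thus depended on the tool.

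The unadjusted count also depended on single libraries, in the members and over all genes. Leaving out 3-day replicate 1 or 3 brought it to 58 or 47 members in edgeR, and leaving out 7-day replicate 1 or 3 brought it to 77 or 78. Leaving out 3-day replicate 2 gave 195. Over all genes tested, 5617 had p under 0.05 in either direction with every library kept. That count was 3550 or 3887 without 3-day replicate 1 or 3, and 3626 or 3050 without 7-day replicate 1 or 3. Without 3-day replicate 2 it was 6856.

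The fitted log2 fold change of 7 against 3 days was positive in 280 of 300 members, against 47.8% of all genes tested, with a median of 0.78 (interquartile range 0.56 to 1.03) over members and -0.02 over all genes. Counting near-identical members once gave 249 of 269 positive and a median of 0.79. Such a rise was not particular to the members. The 5 secondary wall cellulose synthases, none of them a member, had changes of 0.53 (PtrCesA17) to 1.07 (PtrCesA7). The monolignol genes, also not members, ran from -0.60 (PtrPAL1) to 1.26 (PtrPAL5). Every 7-day library was above every 3-day library in 165 members, against 7.39% of all genes, and below in 3, against 19.7%. These last counts use CPM without further scaling, and when the edgeR fit used library totals without TMM factors, the median moved to -0.25 over all genes and 0.58 over members.

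**Figure D4:**
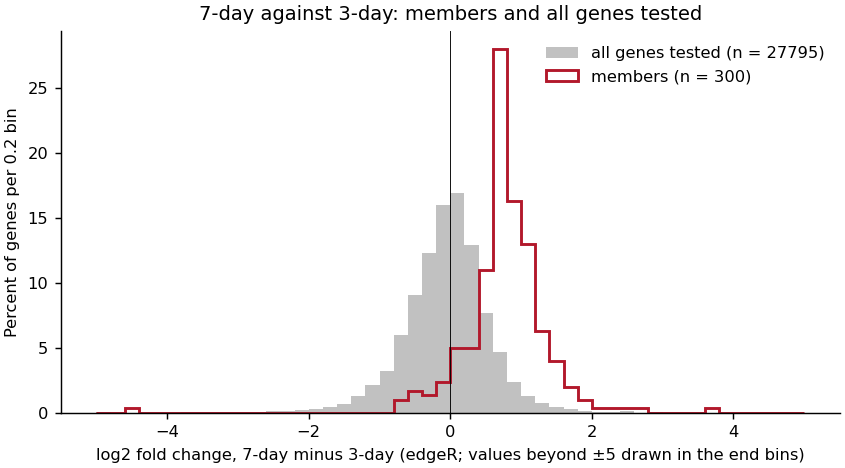
Distribution of the log2 fold change of 7 against 3 days (x axis, edgeR fit) as percent of genes per bin of 0.2 (y axis) for the 300 members and the 27795 genes tested. The members centre at 0.78 and all genes at -0.02.

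The member with the largest sum of L3 and L7 was Potri.002G074900. It had 0.748, 0.416 and 1.53 CPM in control replicates 1, 2 and 3, then 9.0, 20.5 and 26.6 CPM at 3 days and 129, 39.1 and 102 CPM at 7 days. The 3-day and 7-day libraries did not overlap, and each step was upward, reaching 100.3-fold of the control mean at 7 days. The fitted change from 3 to 7 days was 2.54 ± 0.56 (log2, SE), with an adjusted p of 0.147 in edgeR and 0.001 in DESeq2.

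Potri.004G093000 followed the same course at lower counts. It was named for a large rise from 3 to 7 days with no overlap of those libraries. That rise and its p-values therefore describe the choice and are no separate support. Its CPM was 0.176, 1.00 and 0.493 in controls, 3.45, 2.72 and 3.32 at 3 days and 25.1, 8.62 and 19.2 at 7 days. All 7-day libraries were above all 3-day libraries, which were close to each other, and the change from 3 to 7 days was 2.75 ± 0.52 (log2, SE), with an adjusted p of 0.147 in edgeR and 1.0e-04 in DESeq2.

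Potri.012G071300 had 0.440, 0.797 and 1.61 CPM in controls, 6.22, 4.06 and 5.49 CPM at 3 days and 152, 8.67 and 14.9 CPM at 7 days. A single library, 7-day replicate 1, was more than 10 times the other bent libraries, although the 3-day and 7-day libraries did not overlap. Its ratio of 61.7-fold at 7 days and its log2 change of 3.78 ± 1.02 (SE) from 3 to 7 days, with an adjusted p of 0.151 in edgeR and 0.015 in DESeq2, rest largely on that library.

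Potri.002G121300 was higher in each later group. Its CPM was 2.46, 8.31 and 6.32 in controls, 44.2, 35.4 and 14.7 at 3 days and 129, 97.0 and 101 at 7 days. The change from 3 to 7 days was 2.01 ± 0.48 (log2, SE), with an adjusted p of 0.151 in edgeR and 0.0025 in DESeq2. The 3-day and 7-day libraries did not overlap. Its neighbours Potri.002G121200 and Potri.002G121400 were also members, and the 3 genes together had 147, 301 and 301 CPM in controls, 823, 983 and 562 CPM at 3 days and 1601, 1415 and 1450 CPM at 7 days.

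Potri.009G120400, Potri.016G111900 and Potri.010G042300 were the other members among the 8 with the largest sum of L3 and L7 (bent mean of at least 5 CPM) whose mean was highest at 7 days, at 17.7-fold, 31.6-fold and 22.2-fold of the control mean at 7 days. In Potri.016G111900 the controls had 0.132, 0.866 and 2.06 CPM, the 3-day libraries 3.02, 16.1 and 4.56 CPM and the 7-day libraries 39.1, 16.6 and 40.9 CPM. 7-day replicate 2 was thus only just above 3-day replicate 2. In Potri.009G120400 those groups overlapped, with 17.2, 43.9 and 10.4 CPM at 3 days and 68.0, 38.6 and 54.0 CPM at 7 days.

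Potri.016G057600 had the opposite course. Its CPM was 0.923, 0.346 and 0.449 in controls, 101, 35.7 and 9.17 at 3 days and 1.05, 1.13 and 3.51 at 7 days. The 3-day libraries spread more than 10-fold but all lay above the 7-day libraries, of which replicate 1 was only just above the highest control. The ratio to the control mean was 85.0-fold at 3 days and 3.31-fold at 7 days, and the change from 3 to 7 days was -4.45 ± 0.88 (log2, SE), with an adjusted p of 0.147 in edgeR and 7e-06 in DESeq2. It was the only member below its 3-day level by an adjusted p under 0.05 in DESeq2. Potri.016G057600 passed the limit of 2 CPM only through the 3-day group, its 7-day mean being 1.90 CPM. The same 3-day values placed it among the named members, so its p-values carry no separate support.

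Only 2 other members with at least 5 CPM had every 7-day library below every 3-day library. Potri.009G114800 had 2.68, 4.36 and 2.38 CPM in controls, 22.5, 27.7 and 23.1 CPM at 3 days and 18.8, 10.6 and 17.6 CPM at 7 days. Potri.015G147900 had 1.19, 3.26 and 1.70 CPM, then 5.60, 5.36 and 10.7 CPM and 4.60, 3.63 and 5.04 CPM. By the rule, both were above their controls in every bent library, and for Potri.015G147900 the margin was narrow.

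**Figure D5:**
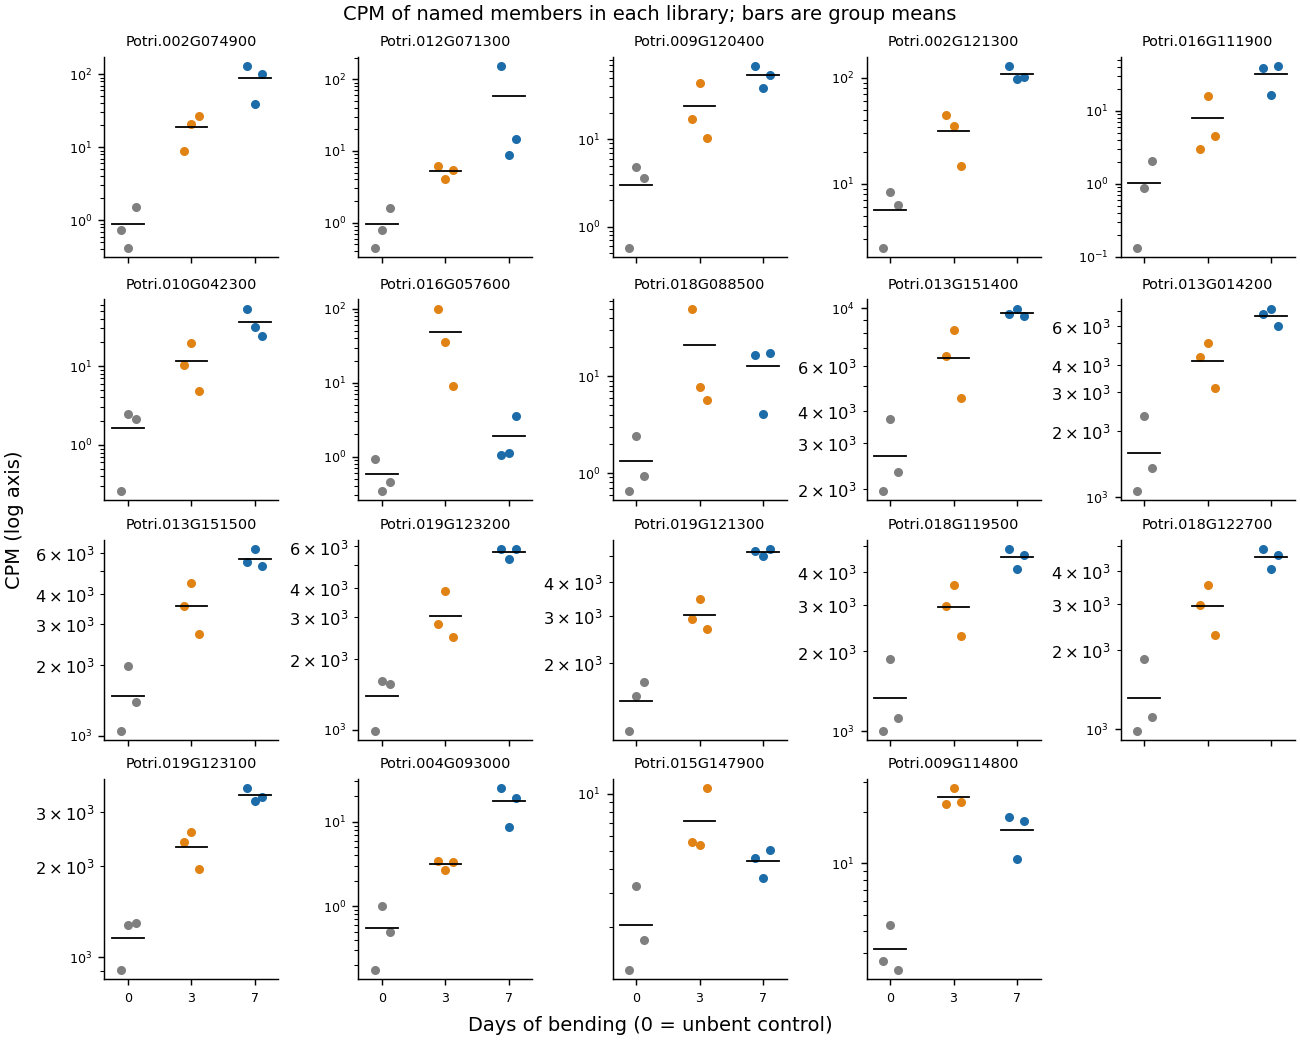
CPM on a log axis (y) in each library by days of bending (x) for the members singled out by the naming rule. Points are libraries and bars are group means; most panels climb from day 0 to day 7, and Potri.016G057600 peaks at day 3.

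The members that took the most counts changed by smaller ratios. Counts are not corrected for gene length, so they rank reads taken and not transcript levels between genes. Potri.013G151400 took the most, with 1966, 3732 and 2310 CPM in controls, 6521, 8275 and 4500 CPM at 3 days and 9501, 9994 and 9374 CPM at 7 days. The 3-day and 7-day libraries did not overlap. The ratios were 2.41-fold and 3.6-fold, and the log2 change from 3 to 7 days was 0.78 ± 0.41 (SE, edgeR adjusted p 0.304).

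Its neighbours Potri.013G151300 and Potri.013G151500 were members too. The 3 consecutive models summed to 3785, 7209 and 4589 CPM in controls, 12797, 15856 and 8863 CPM at 3 days and 18296, 19496 and 17655 CPM at 7 days. The order of libraries within each bent group was that of the group as a whole at 3 days, with replicate 2 highest and replicate 3 lowest. Potri.013G014200, elsewhere on chromosome 13, had 1073, 2337 and 1356 CPM, then 4335, 5006 and 3127 CPM and 6750, 7179 and 5994 CPM.

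Chromosome 19 held 3 more of the 8 members with the most counts. Potri.019G123200 had 990, 1615 and 1557 CPM in controls, 2799, 3871 and 2486 CPM at 3 days and 5843, 5334 and 5864 CPM at 7 days, a log2 change from 3 to 7 days of 1.11 ± 0.34 (SE), with an adjusted p of 0.165 in edgeR and 0.003 in DESeq2. Its neighbour Potri.019G123100 had 906 to 1294 CPM in controls, 1951 to 2581 CPM at 3 days and 3271 to 3602 CPM at 7 days. In both genes the 3-day and 7-day libraries did not overlap.

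Potri.019G121300 had 1119, 1513 and 1697 CPM in controls, 2927, 3479 and 2683 CPM at 3 days and 5216, 5012 and 5334 CPM at 7 days. It closes a run of 5 members among the 6 models from Potri.019G120800 onward, which summed to 2318, 3401 and 3877 CPM, then 6689, 7501 and 6232 CPM and 11008, 10367 and 11329 CPM. In this run control replicate 3, not replicate 2, was the highest control.

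Neighbouring IDs were frequent among the members. Poplar genes often stand in tandem copies, and the numbers in these IDs follow the order along a chromosome. Another member was the adjacent gene model for 109 of the 300 (36.3%), whereas a member was adjacent to 393 of all 23743 genes at 2 CPM (1.66%). With near-identical members counted once it was 76 of 269. In all, 12 runs of 3 or more members, each at most 10 models from the next, held 79 members, 28 pairs held 2 each, and 165 members had no other within 10 models.

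Counts within 5% or 1 count of another gene in all 9 libraries were found in 36 members (12%), against 2.64% of the 23743 genes. This screen was chosen after the counts were seen. Reads that match several copies can be given to each or split between them, so the separate values of such members are uncertain. The sets held 24, 6, 2, 2 and 2 members, and 7 members had exactly the counts of another gene in all 9 libraries.

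The largest run covered 30 of 33 consecutive models from Potri.018G119500 to Potri.018G122700 and held only 5 distinct sets of counts. The set of 24 is typified by Potri.018G121500, with 209, 407 and 196 CPM in controls, 511, 681 and 471 CPM at 3 days and 830, 874 and 732 CPM at 7 days. The outermost models, Potri.018G119500 and Potri.018G122700, had near-identical counts of their own, the former with 1005, 1880 and 1124 CPM, then 2977, 3570 and 2289 CPM and 4871, 4083 and 4620 CPM. All 30 members changed alike from 3 to 7 days, by 0.73 to 0.84 on the log2 scale. Chromosome 18 carried 39 members (13%, against 3.80% of all genes at 2 CPM), or 14 of 269 (5.20%) with near-identical members counted once.

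A second stretch of chromosome 18, from Potri.018G088500 to Potri.018G089400, held 7 members among 10 models, each with its own counts. They summed to 4.40, 31.8 and 8.93 CPM in controls, 143, 57.6 and 44.1 CPM at 3 days and 203, 47.7 and 198 CPM at 7 days. Here 7-day replicate 2 stood about as low as the lower 3-day libraries, and 3-day replicate 1 was the highest of its group. Potri.018G088500, with 50.3, 7.83 and 5.72 CPM at 3 days and 16.5, 4.05 and 17.5 CPM at 7 days, had a log2 change from 3 to 7 days of -0.47 ± 0.86 (SE; edgeR adjusted p 0.778), which turned to 1.10 without 3-day replicate 1.

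The 4 consecutive models Potri.007G114400 to Potri.007G114700 were all members, with sums of 23.5, 66.5 and 42.3 CPM in controls, 228, 98.5 and 152 CPM at 3 days and 102, 103 and 134 CPM at 7 days. Their 3-day replicate 1 was highest and the bent groups overlapped. Changes from 3 to 7 days ran from -0.73 to 0.37 on the log2 scale, and 3 of the 4 genes had L3 above L7.

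Some other runs were higher at 7 days than at 3. The 5 members between Potri.004G117100 and Potri.004G118100 summed to 490, 1221 and 778 CPM in controls, 2809, 3475 and 2297 CPM at 3 days and 4038, 3860 and 4095 CPM at 7 days. The 3 consecutive models Potri.017G064100 to Potri.017G064300 summed to 9.76, 22.9 and 22.5 CPM, then 70.3, 116 and 52.8 CPM and 125, 161 and 159 CPM. In both runs the 3 groups did not overlap. The run from Potri.008G114700 to Potri.008G115600 held 4 members among 10 models. They summed to 85.6, 69.1 and 47.1 CPM at 3 days and 101, 82.2 and 104 CPM at 7 days. Here the 3-day and 7-day libraries overlapped, and changes from 3 to 7 days ran from -0.21 to 0.80 on the log2 scale.

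The run from Potri.009G012100 to Potri.009G014000 held 9 members among 20 models, and most of them carried few reads. Potri.009G012600, 1 of the 6 near-identical members there, had 0, 1.14 and 0 CPM in controls, 1.87, 2.85 and 1.29 CPM at 3 days and 1.76, 2.54 and 1.34 CPM at 7 days. Its lowest bent value lay only just above control replicate 2, and 11 of the 20 models were not members.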

How the data were processed

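Counts of RNA-seq reads per gene model (version 3 IDs of Populus trichocarpa) were taken as the authors deposited them, 1 column for each of 9 libraries. The submitters' processing notes name TopHat, without a version; the counting tool and its treatment of multiply matching reads were not given in the sources used here. The reference table used here, of 34621 genes, matched 0 of the IDs. The study calls its replicates biological, but the labels do not tie them to separate trees, so p-values measure the spread between these samples.

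CPM, L3, L7 and the rule were computed with pandas 2.3.3 in Python 3.11.15. The 7-day and 3-day groups were compared with edgeR 4.0.16 in R 4.3.3 (filterByExpr, TMM, glmQLFit and glmQLFTest on all 9 libraries with 3 groups, Benjamini-Hochberg over 27795 genes, threshold 0.05), and with DESeq2 1.42.0 as the alternative. All 300 members passed filterByExpr. The fits were tested on simulated data. Members, lists and tests were chosen with earlier results of these data known.

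Members were named by rule. The first were the 8 largest sums of L3 and L7 with a bent mean of at least 5 CPM and the 8 with the most counts in bent libraries. Up to 4 in each direction were added by the largest changes from 3 to 7 days. These had a bent mean of at least 5 CPM and 3-day and 7-day libraries that do not overlap. The pairs at the limit on size were the last. Runs were described where they had at least 4 members or held named members. The run from Potri.017G064100 to Potri.017G064300 was described outside this rule.

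Replicate numbers are shared between groups. Deviations from group means of same-numbered 3-day and 7-day libraries correlated at 0.280, 0.244 and 0.174 over genes, so these numbers were treated as pairing the libraries in an alternative fit; between controls and bent groups some pairs correlated negatively. No pair of libraries of the same group agreed within sampling noise (chi-square per gene 22.0 to 92.4 over the 9 pairs). Alternatives were other scalings, pseudocount, level limits, tool, replicate block and each library left out.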

Additional observations from a re-analysis of the deposited data

How the results depend on the processing

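The count of genes called between 7 and 3 days went from 0 in edgeR to 1797 in DESeq2, and that of members called to 55. It ranged from 0 to 3 over all genes with a library left out, 3 without 3-day replicate 2 and 1 without 3-day replicate 3, and the count of members was 0 in each of these fits. The 156 members higher at an unadjusted p became 77 with library totals and 47 to 195 with a library left out. The number of members with a positive change stayed between 268 and 280 and their median between 0.60 and 1.03 with a library left out. The replicate block gave 0 calls, with 179 members higher at an unadjusted p and a median of 0.84 over 9 libraries, and changed no call. The 306 genes meeting the rule became 191 to 540 with a library left out, the extremes coming without 3-day replicate 2 (191) and control replicate 2 (540), with 233 when control replicate 1 was left out, and 264 to 352 under the other scalings, pseudocount, level limit and counts of near-identical genes; the last was chosen after seeing the data. Among named members, Potri.018G088500 changed direction, and its log2 change of -0.47 ranged from -0.97 to 1.10 with a library left out. The control and 3-day libraries differed most in the members' level, and 3 libraries a group limit each of these counts.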
